A study of Mus musculus with 18 samples.

Results

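The transcription factors described here are Ctcf, Yy1, E2f2, Nfya, Ebf1, Myc and Srf, 7 genes of the 47643 counted in each library. They are factors that the study either expressed by lentivirus in injured sensory neurons or predicted from binding sites near genes that rose after injury. Ctcf, Yy1, E2f2 and Ebf1 entered through both routes, Nfya through the lentiviral test alone, and Myc and Srf through the prediction alone. Neither route is described as using their own RNA level, but the 7 were chosen with earlier results of these data known. The other 3 factors of the lentiviral test, Atf3, Fos and Egr1, are not among the 7. The study had listed these 3 as upregulated after injury. The question followed is whether the RNA of the candidate factors themselves moved after axotomy.

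The libraries were made from embryonic dorsal root ganglia (eDRG) of CD-1 mice, taken at e13.5 and grown as spot cultures with the mitotic inhibitor FDU and nerve growth factor. The 3 control cultures were uninjured and were collected at DIV7, that is, after 7 days in vitro. The other cultures were cut with a blade, and 3 were collected at each of 1, 3, 8, 16 and 24 hours post injury (HPI), so that 18 libraries were compared. No uninjured culture was collected at the later times, so injury and additional time in culture cannot be told apart. None of these cultures is labelled as having received a lentivirus, and every level below is that of the endogenous gene.

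CTCF is a zinc finger protein that binds insulators and, with the cohesin ring, anchors chromatin loops. YY1 is a zinc finger factor that activates or represses promoters, works with the INO80 remodelling complex and can also bridge enhancers and promoters. E2F2 belongs to the E2F family, which with its DP partners drives genes of DNA replication and is held back by the retinoblastoma pocket proteins. NFYA is the subunit of the trimeric NF-Y factor that contacts the CCAAT box. EBF1 is a helix-loop-helix factor of differentiating neurons and B cells. MYC pairs with MAX at E-boxes and raises genes of ribosome production and growth, and the MXD and MNT proteins compete for MAX. SRF binds the CArG box, where it answers to MAPK signals through ternary complex factors such as ELK4 and to actin through the MRTF proteins, and it drives immediate early genes and genes of the cytoskeleton.

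The depth was 9478891 counts on genes in the shallowest library (8 HPI replicate 2) and 23082327 in the deepest (3 HPI replicate 2). Sensory neuron markers were high throughout, with a summed level of 7672 to 9685 CPM (counts scaled to library size, with TMM factors) over 7 genes. Markers of satellite glia and Schwann cells summed to 1.77 to 12.7 CPM over 9 genes, of which 6 were too low to test, and all 5 endothelial markers were too low to test. The library of 16 HPI replicate 1 stood apart in residual rRNA fragments, at 26889 CPM where the other 17 libraries held 9692 to 15535 CPM. Each result at 16 HPI is therefore also given without it where that changes a call.

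All 7 genes passed the filter of over 1 CPM in at least 3 libraries, as did 13771 genes in all. On GRCm38, Ctcf (ENSMUSG00000005698.15) lies on chromosome 8 from 105636568 to 105682922 on the + strand, and Yy1 (ENSMUSG00000021264.11) on chromosome 12 from 108792973 to 108820148 on the + strand. E2f2 (ENSMUSG00000018983.9) lies on chromosome 4 from 136172394 to 136196057 on the + strand, and Nfya (ENSMUSG00000023994.13) on chromosome 17 from 48386885 to 48409906 on the - strand. Ebf1 (ENSMUSG00000057098.14) covers chromosome 11 from 44617317 to 45008091 on the + strand. Myc (ENSMUSG00000022346.14) lies on chromosome 15 from 61985391 to 61990374 on the + strand, and Srf (ENSMUSG00000015605.5) on chromosome 17 from 46548329 to 46556175 on the - strand. The exons of Ctcf share 114 bases with Agrp and 370 bases with Gm5914, both on the opposite strand. Whether the counting used strand is not stated, and the other genes held at most 43 and 9 counts in any library, against 182 to 479 for Ctcf. The exons of the other members overlap no other annotated gene.

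All 7 factors were expressed in the uninjured neurons, and per exon length Ebf1 stood highest. In RPKM (TMM-normalised CPM per kilobase of exon), the controls held 18.5 ± 1.23 for Ebf1, 7.35 ± 0.423 for Myc, 6.53 ± 0.0245 for Srf and 5.87 ± 0.655 for Yy1 (SD, n = 3 for each). The control level was 4.19 ± 0.146 RPKM for Ctcf, 1.92 ± 0.541 for Nfya and 0.635 ± 0.191 for E2f2. Ebf1 exceeded Myc in 18 of 18 libraries, and its lowest level of 16 RPKM lay above the highest Myc level of 8.94 RPKM. Myc exceeded Srf in 12 of 18 libraries, so their order is not fixed beyond the spread. Srf exceeded Yy1, Yy1 exceeded Ctcf, Ctcf exceeded Nfya and Nfya exceeded E2f2 in all 18 libraries. Counted over the longest transcript instead of all exons, Yy1 exceeded Ctcf in 15 of 18 libraries and the other orders held in as many libraries or more. Among the tested genes, 83.2% had a lower median RPKM than Ebf1, 48.8% a lower one than Ctcf and 14.9% a lower one than E2f2.

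**Figure D1:**
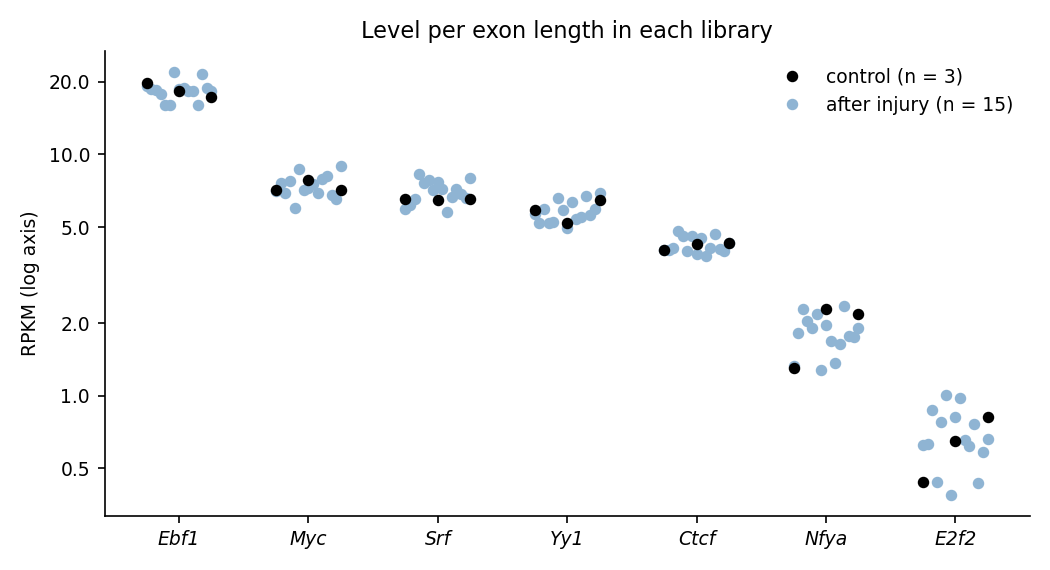
RPKM over the total exon length (log axis) for each factor in each of 18 libraries; black points are the 3 controls and blue points the 15 libraries after injury. Ebf1 lies at 16 to 22 RPKM, E2f2 at 0.389 to 1.01 RPKM, and the points of Myc and Srf overlap.

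The RNA of most of the factors did not change measurably after axotomy. Of the 7, only Srf and Ebf1 passed the test over the 5 time points together (edgeR quasi-likelihood, adjusted p = 0.0126 for Srf and 0.00361 for Ebf1), where 30.0% of all tested genes did. None was called at 1 HPI, where 0.276% of genes were called, at 3 HPI (0.189%), at 8 HPI (7.68%) or at 24 HPI (15.0%). At 16 HPI, 2 of 7 were called, Srf higher and Ebf1 lower, beside 22.2% of all tested genes. A gene was called in a comparison at an adjusted p under 0.05, and the 5 comparisons share the same 3 controls. Across these, the largest fitted change of any member was 0.27 on the log2 scale, for Srf, and the median absolute change of all genes at 16 HPI was 0.14.

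Srf rose modestly and late. Its level was 18.9, 18.8 and 18.9 CPM in the 3 controls, 17.1, 17.8 and 18.9 CPM at 1 HPI and 16.8, 19.3 and 20.8 CPM at 3 HPI. It was 19.8, 19.2 and 23 CPM at 8 HPI, 23.9, 22.1 and 22.6 CPM at 16 HPI and 20.7, 22.3 and 20.7 CPM at 24 HPI. In these TMM-normalised values every library from 8 HPI on lay above every control, at 8 HPI by as little as 19.2 against 18.9 CPM. Without the TMM factors the lowest library was at 18.6 CPM at 8 HPI and 19.5 CPM at 24 HPI. Both overlapped the controls, which then reached 19.6 CPM. The share of all genes so separated was obtained for 16 HPI alone. The 3 HPI libraries lay on both sides of the controls. At 16 HPI the level was 1.21-fold that of control (log2 fold change 0.27, SE 0.08, 95% interval 0.11 to 0.44, adjusted p = 0.0158 by edgeR's quasi-likelihood test), and it was higher in 3 of 3 replicate numbers. The groups of 16 HPI and control did not overlap for Srf alone of the 7, where 20.4% of all tested genes had groups that did not overlap. The differences at 8 HPI (log2 0.14, SE 0.08, adjusted p = 0.332) and 24 HPI (log2 0.17, SE 0.08, adjusted p = 0.16) were not called. The call at 16 HPI was lost without the library rich in rRNA (16 HPI replicate 1, log2 0.21, adjusted p = 0.108) and without control replicate 3 (log2 0.24, adjusted p = 0.0786). It was also lost without the replicate block (log2 0.28, adjusted p = 0.0877).

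Ebf1 held the least RNA at 16 HPI, between higher levels at 8 and 24 HPI. The 3 controls held 193, 179 and 169 CPM, and the 3 libraries of 3 HPI 179.8, 179.8 and 156 CPM. At 8 HPI the level was 209.8, 183 and 179 CPM, at 16 HPI 173, 156 and 156 CPM, and at 24 HPI 215, 181 and 184 CPM. The libraries of 16 HPI lay below all those of 8 and 24 HPI, whereas their range overlapped that of the controls. From 8 to 16 HPI the level fell by 0.24 on the log2 scale (SE 0.05, adjusted p = 0.00294), where 15.2% of genes were called. From 16 to 24 HPI it rose by 0.25 (SE 0.05, adjusted p = 0.00218), where 9.82% were called. Each of these differences had the same sign in 3 of 3 replicate numbers, and both calls held without any 1 library but were lost without the replicate block (adjusted p = 0.205 and 0.226). Against control the decrease at 16 HPI was smaller (log2 -0.15, SE 0.05, 95% interval -0.26 to -0.05, adjusted p = 0.0292), also in 3 of 3 replicate numbers. This last call was lost under 9 of 14 alternatives, with adjusted p up to 0.368, and it was lost without 16 HPI replicate 1 (0.0923), 16 HPI replicate 2 (0.102), or control replicate 1 (0.0698), 2 (0.102) or 3 (0.0563). The increase from 3 to 8 HPI was not called (log2 0.15, SE 0.05, adjusted p = 0.157), where 2.30% of genes were, except without 3 HPI replicate 2 (log2 0.20, adjusted p = 0.0451).

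As these are bulk cultures, fewer cells of a type and less RNA per cell cannot be told apart. Among the 7 sensory neuron markers, Tubb3 was called lower at 16 HPI (log2 -0.40) and the other 6 were not called. The log2 changes of those 6 ran from -0.18 (Calca) to -0.01 (Prph and Pou4f1). The summed level of all 7 was 8850 to 9387 CPM in the controls and 7672 to 8468 CPM at 16 HPI. Prph (4018 CPM) and Tubb3 (2955 CPM) held most of the sum in the controls, on average. The part of these changes in the decrease of Ebf1 was not tested.

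**Figure D2:**
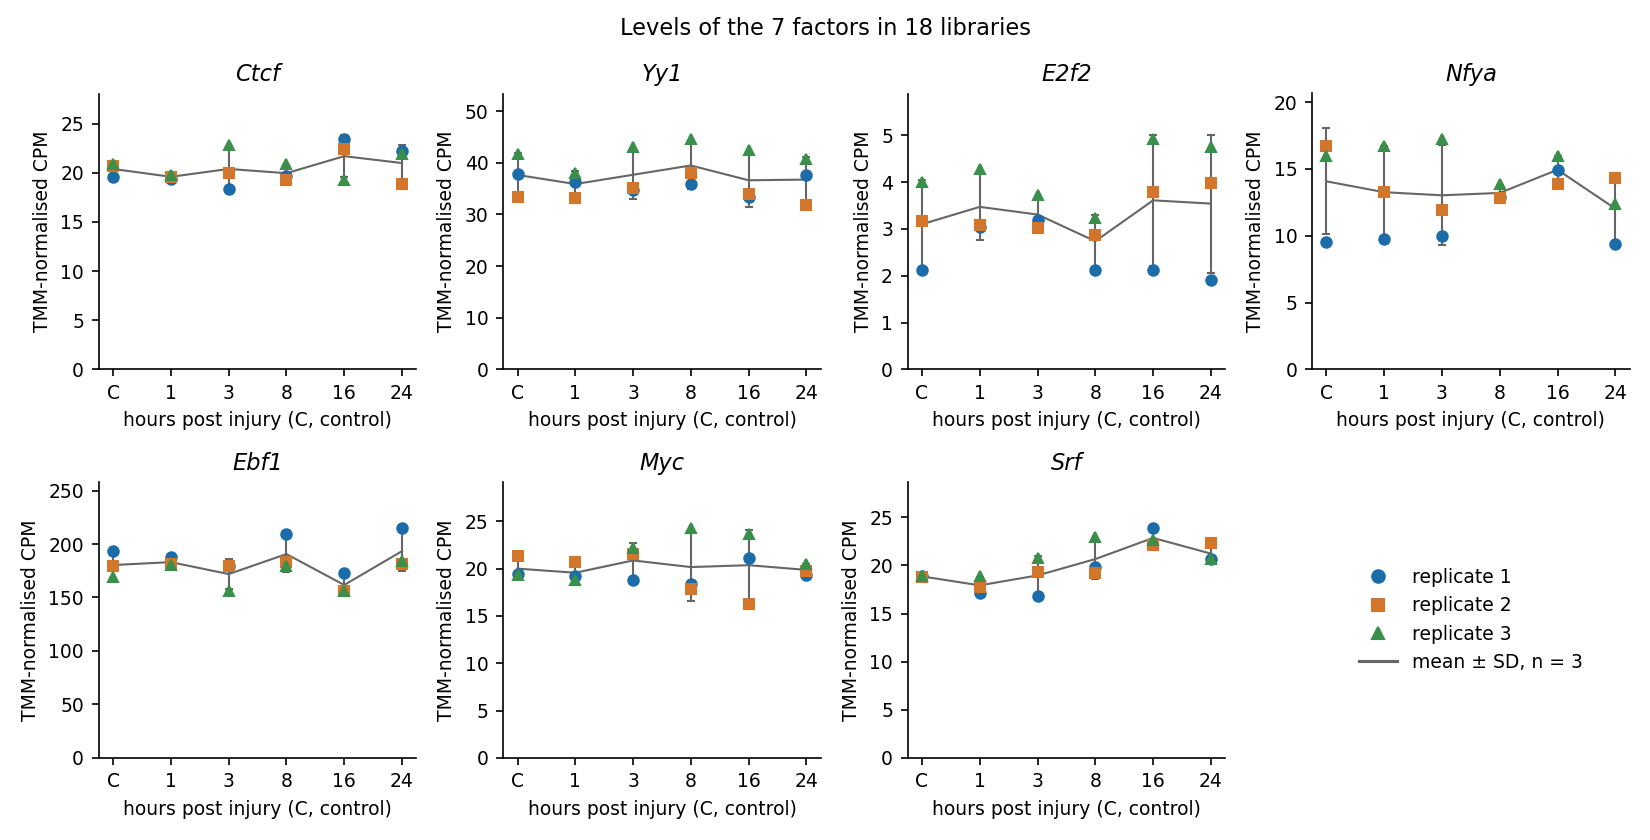
TMM-normalised CPM of each factor (linear axes from 0) against time, with 1 point per library; shapes give the replicate number and grey lines the mean ± SD of 3 libraries. The 3 Srf points at 16 HPI lie at 22.1 to 23.9 CPM above the controls, Ebf1 dips to 156 to 173 CPM at 16 HPI, and replicate 3 of Yy1 is the highest at every time.

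Ctcf and Yy1, the chromatin factors of the group, stayed close to their control levels. Ctcf held 19.6, 20.7 and 20.9 CPM in the controls, 19.7, 19.3 and 20.9 CPM at 8 HPI, 23.4, 22.4 and 19.3 CPM at 16 HPI and 22.2, 18.9 and 21.9 CPM at 24 HPI. The groups overlapped at every time. The fitted level of Ctcf at 16 HPI was 1.07-fold that of control (95% interval 0.939 to 1.21, adjusted p = 0.511), and over the 5 time points the intervals ran from 0.85-fold to 1.21-fold. Yy1 held 37.9, 33.3 and 41.7 CPM in the controls, 35.9, 38.0 and 44.5 CPM at 8 HPI, 33.4, 33.9 and 42.5 CPM at 16 HPI and 37.6, 31.9 and 40.7 CPM at 24 HPI. Its level was 0.97-fold that of control at 16 HPI (95% interval 0.882 to 1.07, adjusted p = 0.698), and the intervals over the time points ran from 0.868-fold to 1.15-fold. In neither gene did any time point separate from the controls.

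E2f2, the least abundant of the 7, was the least well bounded. It rested on 27 to 104 counts per library, at 2.13, 3.17 and 4 CPM in the controls, 2.12, 2.86 and 3.23 CPM at 8 HPI, 2.13, 3.79 and 4.91 CPM at 16 HPI and 1.90, 3.97 and 4.75 CPM at 24 HPI. In all of these groups replicate 1 was lowest and replicate 3 highest. Its fold change at 16 HPI was 1.17 (95% interval 0.899 to 1.53, adjusted p = 0.415), and at 8 HPI 0.879 (0.659 to 1.17, adjusted p = 0.648). From 8 to 16 HPI it differed by 0.42 on the log2 scale (SE 0.20, adjusted p = 0.164), with the same sign in 3 of 3 replicate numbers, and was not called. An increase of up to 1.53-fold at 16 HPI could therefore not be told from none.

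Nfya held 9.50, 16.7 and 16.0 CPM in the controls, 12.9, 12.8 and 13.9 CPM at 8 HPI, 14.9, 13.9 and 16.0 CPM at 16 HPI and 9.37, 14.3 and 12.4 CPM at 24 HPI. Replicate 1 differed from control by 0.64 on the log2 scale at 16 HPI, while replicate 2 differed by -0.26 and replicate 3 by -0.00, so the replicate numbers did not move together. The fold change was 1.08 at 16 HPI (95% interval 0.876 to 1.33, adjusted p = 0.654) and 0.872 at 24 HPI (0.708 to 1.07, adjusted p = 0.39).

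Myc, known as a promoter of axon regrowth from other work, stayed near its control level. It held 19.4, 21.3 and 19.3 CPM in the controls, 18.4, 17.8 and 24.3 CPM at 8 HPI, 21.1, 16.3 and 23.7 CPM at 16 HPI and 19.3, 19.8 and 20.5 CPM at 24 HPI. The libraries of 8 and 16 HPI spread more widely than those of control and 24 HPI, on both sides of the controls. Its fitted fold change was 1.02 at 16 HPI (95% interval 0.872 to 1.19, adjusted p = 0.895) and 0.997 at 24 HPI (0.855 to 1.16, adjusted p = 0.986).

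For comparison, the other 3 factors of the lentiviral test, Atf3, Fos and Egr1, all rose strongly. They are stress-induced and activity-induced factors. The study had listed these 3 as upregulated in these same libraries, so their rise was known in advance and is not an independent result. Atf3 went from 7.62 to 18.6 CPM in the controls to 114 to 121 CPM at 16 HPI (log2 fold change 3.16, SE 0.21, adjusted p = 4.12e-09). Fos was called higher at every time, with log2 changes of 2.52 at 1 HPI and 2.79 at 8 HPI. Its level was low, at 1.11 CPM on average in the controls and at most 9.14 CPM in any library. Fos passed the filter only with the help of injured libraries. Egr1 was called at 8 HPI (log2 2.14, adjusted p = 2.02e-06) and 16 HPI (log2 1.00, adjusted p = 0.00333). It averaged 2.41 CPM in the controls and reached at most 12.6 CPM. Without the replicate block its call at 16 HPI was lost (edgeR adjusted p = 0.122). Egr1 is counted again below among the factors with predicted binding sites, and Fos and Egr1 among the immediate early targets of SRF. Of all tested genes, 3.78% were called higher at 8 HPI and 10.7% at 16 HPI. The levels of none of these 3 factors at 8 HPI overlapped their controls. The share of all genes so separated at 8 HPI was not obtained.

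**Figure D3:**
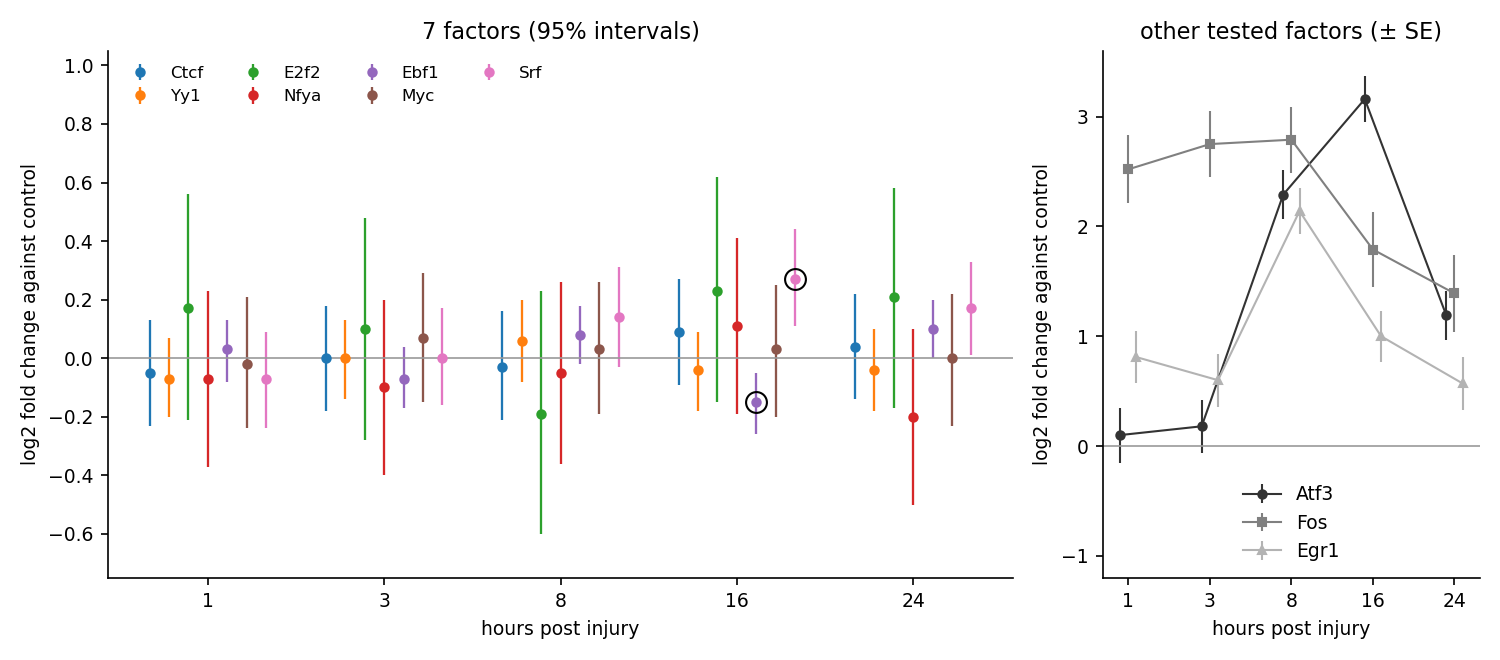
Log2 fold change against control at each time, for the 7 factors on the left (bars, 95% intervals; black rings, adjusted p under 0.05) and for Atf3, Fos and Egr1 on the right (bars, SE; wider axis). Only Srf (0.27) and Ebf1 (-0.15) at 16 HPI are ringed, while Atf3 reaches 3.16.

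Of the 37 further factors with predicted binding sites, 25 could be tested. The test called 5 of them at 8 HPI, all higher, where 3.78% of tested genes were called higher and 3.90% lower. At 16 HPI there were 8 above control and 1 below, beside shares of 10.7% and 11.5%, and the 2 called at 24 HPI lay below control, beside 5.99% above and 9.03% below. The 4 with the smallest p at 8 or 16 HPI were Jun, Egr1, Rora and Hif1a. Jun, the AP-1 factor of axon injury, had a log2 change of 1.03 at 8 HPI (adjusted p = 1.46e-06) and 0.80 at 16 HPI (adjusted p = 2.98e-06). Rora, an orphan nuclear receptor, had a log2 change of 0.80 at 16 HPI (adjusted p = 9.52e-05), and Hif1a, the hypoxia factor, of 0.32 (adjusted p = 0.000236). The median log2 change of the 25 was 0.03 at 8 HPI and 0.09 at 16 HPI, against -0.00 over all genes at both times. Without 16 HPI replicate 1 the test called 6 of the 25 above control at 16 HPI, and without the replicate block 1. These factors were predicted from the genes that rose in these same libraries.

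The replicate number, which marks a set of 1 culture of each group, accounted for more of the spread of Yy1, E2f2 and Nfya than time did. In log2 CPM, replicate number took 74.1% of the variance over 18 libraries for Yy1, 67.5% for E2f2 and 51.9% for Nfya, and time took 9.42%, 9.67% and 12.6%. For Srf, time took 69.3% and replicate number 8.19%, and for Ebf1 they took 50.8% and 37.3%. Ctcf and Myc left 72.2% and 74.5% to neither. Time has 6 levels and replicate number 3, and for the median tested gene the shares were 31% and 34.3%. In a test added after the data were seen, 4 of the 7 differed between replicate numbers, namely Yy1 (adjusted p = 4.76e-05), E2f2 (0.000189), Ebf1 (0.000555) and Nfya (0.00138), beside 60.9% of all tested genes. Mean E2f2 was 2.42, 3.32 and 4.15 CPM in replicates 1, 2 and 3, and mean Yy1 36, 34.3 and 41.8 CPM.

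**Figure D4:**
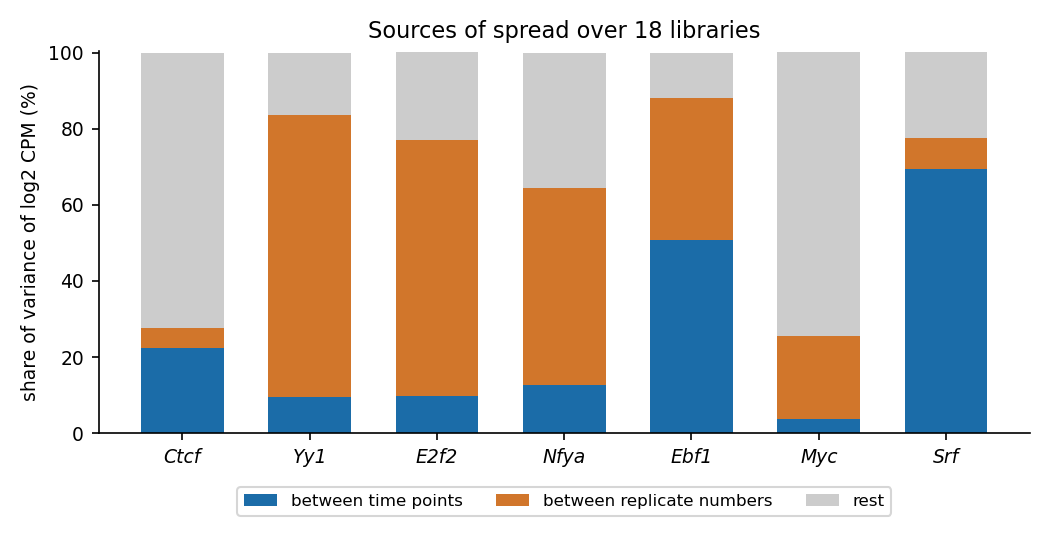
Share of the variance of log2 CPM over 18 libraries that lay between time points (blue), between replicate numbers (orange) and in neither (grey), in percent, stacked to 100. Time holds 69.3% for Srf, and replicate number holds 74.1% for Yy1.

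The partners of the members gave the following. Of 13 tested genes of CTCF and cohesin, which include Ctcf, 1 was called higher and 1 lower at 16 HPI, beside 22.2% of all tested genes called in either direction. Pds5b, a cohesin regulator, fell by 0.26 on the log2 scale (adjusted p = 0.0163) and had fallen by 0.31 at 8 HPI (adjusted p = 0.0164). Wapl, which releases cohesin, rose by 0.16 (adjusted p = 0.0311). At 24 HPI Stag2 (log2 0.27) was higher and Smc3 (log2 -0.16) lower, both named after their values were seen, and these calls held under 13 and 2 of 14 alternatives. The calls at 16 HPI held under 9 of 14 alternatives for Pds5b and 6 of 14 for Wapl, and neither held without the replicate block. The core cohesin genes were otherwise not called, and the CTCF paralog Ctcfl had at most 1 count in any library.

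Of 16 tested genes of YY1 partners and the INO80 complex, none was called at 8 or 16 HPI, and at 24 HPI 1 was higher and 2 lower, beside 7.68%, 22.2% and 15.0% of all tested genes called at these times. By their values those were Yaf2 (log2 0.20), Rybp (log2 -0.41) and Nfrkb (log2 -0.23). Rybp and Yaf2 are Polycomb adaptors that bind YY1, and Nfrkb is an INO80 subunit. The YY1 paralog Yy2 had no count in any library, which allows up to 3 counts in each.

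The other NF-Y subunits were not called at any time. Nfyb differed by 0.18 (SE 0.11, adjusted p = 0.251) and Nfyc by 0.14 (SE 0.10, adjusted p = 0.363) on the log2 scale at 16 HPI.

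In the E2F family, E2f1 (log2 -0.22, adjusted p = 0.251), E2f3, E2f4, E2f5 and E2f6 were not called at 16 HPI, and E2f7 and E2f8 were too low to test. Tfdp2, which encodes a DP partner of the E2F proteins, was the only called gene of the 10 tested at 16 HPI, beside 22.2% of all tested genes. It held 9.36 to 11.4 CPM in the controls and 12.8 to 15.8 CPM at 16 HPI (log2 0.46, SE 0.11, adjusted p = 0.00352). Its call held under 14 of 14 alternatives. Of 14 tested E2F target genes of DNA replication, 5 were called higher and none lower at 16 HPI, and 3 higher and none lower at 24 HPI, beside 10.7% and 5.99% of all tested genes called higher. They include Ccne2, a cyclin of S phase entry (log2 0.59, adjusted p = 0.00676), Pcna, the replication clamp (log2 0.27, adjusted p = 0.0164), and Mcm6, a helicase subunit (log2 0.25, adjusted p = 0.0274). Mcm6 reached 0.63 at 24 HPI (adjusted p = 1.62e-05). Cdt1, a licensing factor, was higher by 0.72 at 16 HPI (adjusted p = 0.0285). The median over the 14 was 0.25 at 16 HPI, against -0.00 for all genes. Without 16 HPI replicate 1 the test called 2 of the 14 higher at 16 HPI, and without the replicate block 1. The calls at 16 HPI held under 13 of 14 alternatives for Ccne2, 11 of 14 for Pcna, 7 of 14 for Mcm6 and 8 of 13 for Cdt1. Without the replicate block the edgeR adjusted p was 0.0461 for Ccne2, 0.206 for Pcna, 0.327 for Mcm6 and 0.326 for Cdt1. Cdt1 rested on 10 to 66 counts per library. Beside these, 6 markers of dividing cells summed to 3.10 to 4.24 CPM in the controls, 4.36 to 5.29 CPM at 16 HPI and 4.77 to 8.08 CPM at 24 HPI. Of 4 such markers tested, 1 was called at 8 HPI (Ccnb1, log2 0.98, adjusted p = 0.0316), none at 16 HPI and 1 at 24 HPI (Top2a, log2 1.44). Of all tested genes, 3.78% were called higher at 8 HPI and 5.99% at 24 HPI. Ccnb1 and Top2a, at 0.642 and 0.558 CPM on average in the controls, passed the filter only through injured libraries. The part of dividing cells in the replication genes was not tested.

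At 16 HPI Ebf3 and Ebf4 were called lower besides Ebf1. With Ebf1 these were 3 of the 6 tested genes of the EBF family and its zinc finger partners, beside 11.5% of all tested genes called lower, and none of the 6 was called higher. Ebf3 held 107 to 132 CPM in the controls and 96.2 to 108 CPM at 16 HPI, which overlapped (log2 -0.26, SE 0.06, adjusted p = 0.00221). Ebf4 held 5.01 to 6 CPM in the controls and 2.77 to 3.98 CPM at 16 HPI, which did not (log2 -0.73, SE 0.15, adjusted p = 0.000896). Ebf2 was not called (log2 -0.33, SE 0.14, adjusted p = 0.0916). Without 16 HPI replicate 1, 2 of the 6 were called lower. No gene of this group was called at 8 or 24 HPI. The calls of Ebf3 and Ebf4 each held under 13 of 14 alternatives and that of Ebf1 under 5 of 14, and without the replicate block the adjusted p was 0.103 for Ebf3 and 0.0625 for Ebf4.

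In the network of MYC and MAX, the paralogs Mycn (log2 0.01) and Mycl (log2 0.56, SE 0.23, adjusted p = 0.0819) and the partner Max (log2 -0.08) were not called at 16 HPI. Of 13 tested genes of this network, 1 was called at 8 HPI and 1 at 16 HPI, both higher. The shares of all tested genes called in either direction were 7.68% and 22.2%. Mxi1, which competes with MYC for MAX, rose by 0.55 at 16 HPI (SE 0.14, adjusted p = 0.0057). Mnt, another such repressor, rose by 0.30 at 8 HPI (adjusted p = 0.0308), a call that held under 8 of 14 alternatives. Mxd1 (log2 0.18), Mxd3 (log2 0.40) and Mxd4 (log2 0.16) were not called at 16 HPI. Of 15 MYC target genes of the nucleolus and growth, 1 was higher and 2 were lower at 16 HPI, beside 22.2% of all tested genes called. Odc1, the polyamine enzyme ornithine decarboxylase, held 52.1 to 72.2 CPM in the controls and 90.5 to 102 CPM at 16 HPI (log2 0.59, SE 0.08, adjusted p = 1.06e-05). Cad, the first enzyme of pyrimidine synthesis, fell by 0.42 (adjusted p = 0.000448), and Nop56, a nucleolar protein, by 0.15 (adjusted p = 0.0321). The median over the 15 was 0.04. The call of Odc1 held under 14 of 14 alternatives, that of Cad under 13, that of Mxi1 under 12 and that of Nop56 under 5. Those of Cad and Nop56 were lost without the replicate block (adjusted p = 0.322 and 0.271), as was that of Mxi1 (0.143).

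Around Srf, 3 of 7 tested genes, Srf among them, were higher and 1 was lower at 16 HPI, beside 10.7% of all tested genes called higher and 11.5% lower. Besides Srf these were Fhl2, a cofactor that held 5.39 to 7.52 CPM in the controls and 10.6 to 10.7 CPM at 16 HPI (log2 0.69, SE 0.13, adjusted p = 0.000792), and Elk4 (log2 0.26, SE 0.08, adjusted p = 0.0204). Mrtfb, which encodes an actin-regulated coactivator, was lower by log2 -0.21 at 16 HPI (adjusted p = 0.02) and -0.38 at 24 HPI (adjusted p = 0.000466), and its relative Mrtfa was not called (log2 -0.21, SE 0.08, adjusted p = 0.0666). Without 16 HPI replicate 1 the test called 1 of the 7 higher and 1 lower, and without the replicate block 1 higher, and the call of Fhl2 held under 14 of 14 alternatives and those of Elk4 and Mrtfb at 16 HPI under 8 each.

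**Figure D5:**
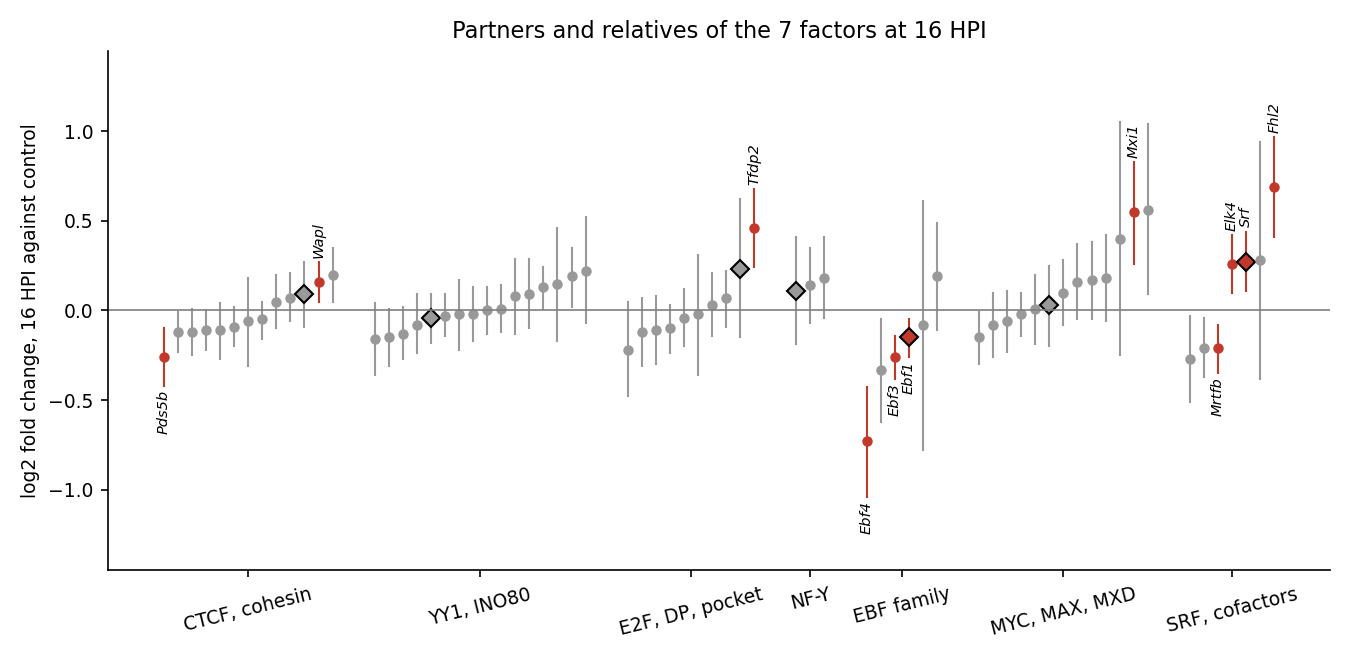
Log2 fold change at 16 HPI against control, with 95% intervals, for the tested members (diamonds), their partners and their relatives (circles); red marks an adjusted p under 0.05. Ebf4 (-0.73), Ebf3 (-0.26) and Ebf1 lie below 0, and Srf, Elk4 and Fhl2 (0.69) above it.

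Most tested immediate early targets of SRF rose. Of 7 tested immediate early genes, 3 were already called higher at 1 HPI and at 3 HPI. The number was 6 at 8 and 16 HPI and 4 at 24 HPI, and none was called lower. The other 5 of the 12 listed genes were too low to test. The 3 called at 1 and 3 HPI were Fos, Fosb and Arc, at 1.11, 0.303 and 0.981 CPM on average in the controls. They passed the filter of over 1 CPM in 3 libraries only with the help of injured libraries. Such a filter favours calls as higher. Of all tested genes, 0.276% were called in either direction at 1 HPI and 0.189% at 3 HPI, and the shares called higher from 8 HPI on were 3.78%, 10.7% and 5.99%. The effector Arc held 0.811 to 1.17 CPM in the controls and 4.81 to 5.40 CPM at 16 HPI (log2 2.34, SE 0.21, adjusted p = 1.31e-07). Junb, an AP-1 factor, rose by 1.49 at 16 HPI (adjusted p = 2.69e-05). The count at 16 HPI was 6 without 16 HPI replicate 1 and 5 without the replicate block. Without that block, 0 of all tested genes were called at 1 HPI and 1 at 3 HPI. The 3 calls at 1 HPI were thus lost, and at most 1 of those at 3 HPI was kept. With 1 library left out, as few as 3 of all tested genes were called at 1 HPI and 1 at 3 HPI. At 1 and 3 HPI, when Fos and Arc were called (log2 1.24 and 1.43 for Arc), Srf differed from control by -0.07 and 0.00.

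Of 11 tested cytoskeletal targets, 3 were called higher and none lower at 16 HPI, beside 10.7% of all tested genes called higher. Tpm4, a tropomyosin, held 28.9 to 38.3 CPM in the controls and 50 to 63.5 CPM at 16 HPI (log2 0.78, SE 0.07, adjusted p = 3.02e-07). Zyx, a focal adhesion protein, rose by 0.72 (SE 0.10, adjusted p = 3.72e-05), and Filip1l by 1.07 (SE 0.21, adjusted p = 0.000915) from 0.964 to 1.17 CPM in the controls. These 3 calls held without 16 HPI replicate 1 and without the replicate block. Filip1l rested on 15 to 40 counts per library and passed the filter only with the help of injured libraries. The actin genes Actb and Actg1 and the vinculin gene Vcl, at 0.06, 0.04 and -0.07 on the log2 scale, were not called, and they are named after their values were seen. Beside these, 7 markers of fibroblasts and pericytes, cells in which such genes are high, summed to 5.68 to 8.84 CPM in the controls and 6.06 to 11.1 CPM at 16 HPI. Of 5 tested, Dcn was called higher (log2 2.07) and Rgs5 lower (log2 -1.30) at 16 HPI. Dcn, at 0.57 CPM on average in the controls, passed the filter only through injured libraries. Of 2 myeloid markers tested, Cd68 was called higher at 16 HPI (log2 0.97) and Aif1 was not called (log2 0.25, adjusted p = 0.43). Cd68, at 0.868 CPM on average in the controls, passed the filter only with the help of injured libraries. Its call was lost without the replicate block (edgeR adjusted p = 0.163). The part of other cells in the cytoskeletal genes was not tested.

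SRF is known to act on its own promoter, and the RefSeq window of Srf (250 bases before to 50 after the start, on GRCm38.p6) held 2 CArG boxes and 2 CCAAT boxes, the letters that SRF and NF-Y bind. The stretch from position -150 to position -21, counted from the start, is shown with these boxes in capitals, because it holds the letters of SRF beside those of NF-Y in the promoter of the member that rose. It lies at chr17:46556183-46556312 on the - strand. The other lines show the CArG boxes upstream of the 4 tested cytoskeletal targets that held one, with 10 bases on either side.
Srf: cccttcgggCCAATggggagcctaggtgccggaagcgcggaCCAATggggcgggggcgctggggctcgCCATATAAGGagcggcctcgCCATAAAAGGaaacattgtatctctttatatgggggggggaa
Filip1l: atgccgcgcgCCTTATAAGGctgagcggtg
Cnn2: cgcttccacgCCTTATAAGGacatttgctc
Actg1: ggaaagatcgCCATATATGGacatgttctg
Vcl: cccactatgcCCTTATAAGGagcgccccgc

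The last 4 lie at chr16:57549170-57549199 on the + strand, chr10:79988534-79988563 on the + strand, chr11:120348566-120348595 on the - strand and chr14:20929161-20929190 on the + strand. Filip1l, Cnn2 and Vcl carry the same 10 letters. Of these, Filip1l was called at 16 HPI, while Vcl and Cnn2, a calponin gene (log2 0.60, adjusted p = 0.168), were not. Cnn2 was called higher at 24 HPI (log2 1.62, adjusted p = 0.000219). Cnn2 held 0.812 CPM on average in the controls and passed the filter only with the help of injured libraries. A CArG box stood in the windows of 4 of 9 tested cytoskeletal targets and 0 of 4 tested immediate early targets with a window. The share was 1.53% of 10145 tested genes with a window. Of all listed genes with a window, tested or not, 5 of 13 cytoskeletal and 1 of 7 immediate early targets held a box. That immediate early gene was Egr2, too low to test. The tested Egr1, Ier2 and Arc had no window, and boxes outside the windows were not searched for. These genes were listed as SRF targets, so the comparison with all tested genes is not an independent one. On either strand, 1.63% of all 32851 windows held a CArG box and 37.4% a CCAAT box.

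The windows of 6 members were searched for the letters of all 7 factors on both strands. The others were AANATGGC for YY1 (6.05% of all windows), TTTNGCGC for E2F (1.38%), CACGTG, the E-box of MYC and MAX (7.15%), AGGNGGC from the centre of the CTCF motif (29.4%), and CCCNNGGGA for EBF (6.56%). The Ctcf window held 1 match for YY1 and 1 for CTCF, and the Yy1 window 6 for CTCF. E2f2 has 2 windows, of which the upstream window held 1 E2F match and 1 CCAAT box. Neither of the 2 Ebf1 windows held any of the letters. Windows of genes called over 2-fold higher at 16 HPI (1.18% of tested genes) held the letters of CTCF at a share of 36.8% over 136 windows, beside 40.5% of 13063 windows of all tested genes. The shares were 1.47% beside 2.27% for E2F and 2.21% beside 7.98% for YY1, and 2.94% beside 1.25% for the CArG box, none of them tested. Matches of letters are not bound sites.

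Over 18 libraries, with the replicate means removed, the genes whose log2 CPM ran most like Srf were Pea15a (Pearson r = 0.92), Rhoq (r = 0.92) and Crem (r = 0.90). All 3 were called higher at 16 HPI, by 0.27, 0.57 and 0.84 on the log2 scale. For Ebf1 they were Scai (r = 0.87), Pirt (r = 0.86) and Cxxc4 (r = 0.85), none of them called at 16 HPI. For Nfya they were Plekhm1 (r = 0.88), Camta1 (r = 0.87) and Kpna3 (r = 0.84), and for Myc Zfp706 (r = 0.83), 1110008P14Rik (r = 0.81) and Ppp3r1 (r = 0.81). The highest r was 0.76 for Ctcf (Hint2, then Pdcd6 and Tigd5), 0.78 for Yy1 (Pcdhb8, then Gm13910 and Ptprv) and 0.82 for E2f2 (a gene listed only as ENSMUSG00000103283.2, then Ccdc155 and Pard3b). Between members the highest r was 0.54, for Ctcf and Srf. Each is the highest over all tested genes, and the points share libraries and time groups.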

How the data were processed

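RNA was sequenced from 18 eDRG spot cultures, and the authors deposited raw read counts per gene for each library, without normalization. The paper's methods name cutadapt, STAR and featureCounts, the submitters' processing notes name STAR and HTSeq with mm10, and the tables end in 5 entries for reads on no gene (25.2% to 33.2% of counts), which were left out. GENCODE vM21 on GRCm38 named 47224 of the 47643 identifiers.

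A gene was tested when 3 or more libraries held over 1 CPM, in R 4.3.3 with edgeR 4.0.16 (TMM, quasi-likelihood, terms for time and replicate number, 18 libraries in 1 fit, two-sided, Benjamini-Hochberg over 13771 genes). Intervals are 95% from the fit. Replicate numbers come from the sample titles, and the study's methods name a batch correction. Same-numbered libraries deviated together from their group means in each of 45 pairs (correlation over genes 0.484 to 0.765). Nothing states that the replicates came from separate animals, so p-values measure the spread between these cultures. Levels are TMM-normalised CPM, and log2 CPM had a prior count of 2.

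The members and lists were chosen with earlier results of these data known. All members were named at all times, of each list up to 4 genes called at 8 or 16 HPI with the smallest p, paralogs and subunits whatever their values, and the 3 genes most like each member. Alternatives were DESeq2 1.42.0 (size factors and Wald test), upper-quartile factors, 2 other filters, no replicate block, rRNA and mitochondrial genes left out, 2 groups alone, and each library left out. The method was tested on simulated data. These held no replicate effect and only changes larger than those called in the members, so this test does not bear on the members' calls. A floor of 3 counts covers counting error only. Promoter windows are RefSeq's. The lentiviral assays and binding site predictions were not analysed.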

Additional observations from a re-analysis of the deposited data

Results flagged for a closer look

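Ebf1 was the only member of the 7 called between neighbouring late time points. It was lower at 16 HPI than at 8 HPI (log2 -0.24, edgeR adjusted p = 0.00294) and higher at 24 HPI than at 16 HPI (log2 0.25, adjusted p = 0.00218), in 3 of 3 replicate numbers each. Both differences share the 3 libraries of 16 HPI, and each call held under 11 of 12 alternatives, the exception being the fit without the replicate block. Groups of 3 libraries were not examined for single outlying samples.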

How the results depend on the processing

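Without the replicate block, 0 of 7 members were called at 16 HPI and 0 over the 5 time points together, in place of 2 and 2. The Ebf1 adjusted p was then 0.368 at 16 HPI and that of Srf 0.0877, and over the time points 0.401 and 0.138. All genes called fell without it to 0 (from 38) at 1 HPI, 1 (from 26) at 3 HPI, 61 (from 1058) at 8 HPI, 706 (from 3055) at 16 HPI, 153 (from 2068) at 24 HPI, 535 (from 4128) over all times, 44 (from 317) between 3 and 8 HPI, 207 (from 2090) between 8 and 16 HPI and 111 (from 1352) between 16 and 24 HPI. At 16 HPI, 1 member (Srf) was called with upper-quartile factors, with at least 10 counts over all libraries, and with the 2 groups alone. The calls over the 5 time points held in 23 of 24 alternatives for each of Ebf1 and Srf. With at least 10 counts, 65 genes were called at 1 HPI and 43 at 3 HPI, with the DESeq2 Wald test 136 and 149, with the 2 groups alone 448 at 1 HPI and 570 at 8 HPI, and without rRNA and mitochondrial genes 58 at 1 HPI.

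With each library left out in turn, 0 to 2 members were called at 16 HPI (0 without 16 HPI replicate 1 or without control replicate 3) and 2 to 2 over all times. Genes called ranged from 3 to 65 at 1 HPI, 1 to 148 at 3 HPI, 448 to 808 at 8 HPI, 2257 to 2724 at 16 HPI, 1239 to 1554 at 24 HPI and 3315 to 4083 over all times. They ranged from 166 to 250 between 3 and 8 HPI, 1355 to 1735 between 8 and 16 HPI and 616 (without 16 HPI replicate 1) to 1293 between 16 and 24 HPI. The cause of these shifts was not tested.

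Of 742 alternative values of the members' log2 changes, 58 had the other sign, all in comparisons that were called in neither fit and all between -0.10 and 0.14. Over the longest transcript the median level was 30.1 RPKM for Ebf1 in place of 18.4 and 3.66 for Nfya in place of 1.86. Depth limits E2f2 most, at 27 to 104 counts per library.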
